A study of Mus musculus with 40 samples.

Results

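The comparison concerned 13 glioma cell lines of the 40 arrays in the series: 2 lines grown from early biopsies and 11 lines labelled only as glioma cell lines, which the methods describe as derived from tumors and which are called end-stage lines here. Samples were assigned by their titles, and each line is named by its array number: 66 and 69 for the early biopsy lines, and 47, 49, 51, 53, 55, 57, 59, 61, 63, 65 and 68 for the end-stage lines. All 13 lines carried the same genotype, hGFAP-cre+;p53LSLR172H/floxE2-10, in which Cre under the human GFAP promoter leaves 1 deleted p53 allele and 1 allele encoding the mutant protein R172H. The mice had a mixed genetic background. Early tumors were sampled with a needle guided by magnetic resonance imaging, and lines were grown as spheres in neural stem cell medium with bFGF and EGF. Both groups carried the phenotype label malignant glioma, and the labels gave no age or animal. RNA was hybridized to Affymetrix whole-genome mouse arrays, and all values are log2 signals, on which a difference of 1 is a 2-fold difference. Differences are early biopsy minus end-stage lines. The question was whether cells grown from a tumor at an early stage differ in expression from cells grown from tumors at the end stage.

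Sphere cultures in growth factor medium favor dividing cells with neural stem and progenitor features, and cells of the vessels, immune system and mature brain are usually lost. Such cells make their own cholesterol through the mevalonate pathway, whose genes are switched on together by the transcription factor Srebf2 when sterols are scarce. Low oxygen stabilizes HIF factors, which raise genes of glucose uptake, glycolysis and pH control. p53 drives cell cycle arrest genes such as Cdkn1a and cell death genes such as Bbc3, and the R172H protein has lost much of this activity.

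The marker genes matched the labelled cell type. Fabp7, a fatty acid binding protein of radial glia, stood at 14.11 in line 66 and 13.92 in line 69 and between 12.81 and 14.01, with a median of 13.77, in the end-stage lines. Sox2, the stem cell transcription factor, stood at 12.12 and 11.80 and between 11.78 and 12.83. These levels were high in every line and overlapped between the groups. Aif1 and Ptprc, of microglia and leukocytes, and Pecam1, of vessels, were below the array medians of 5.24 to 5.47 in all 13 lines: Aif1 lay at 3.68 and 3.59 in the early biopsy lines and at no more than 4.28 in the end-stage lines, and Ptprc and Pecam1 reached no more than 4.04 and 4.01. Of the marker lists of microglia and macrophages, endothelial cells and pericytes, fibroblasts and blood, 1 member had an unadjusted p under 0.05, against 2.83% of all genes: Pdpn, a surface protein also made by glia, at 11.12 and 10.21 and between 6.94 and 11.27. Notch3, which pericytes also express, was the member of these lists that lay above all end-stage lines. The endothelial and pericyte list had a median difference of -0.14 and the fibroblast list one of -0.13, and with dim genes left out these were 1.03, the value of Notch3, and 0.82. In bulk cultures, fewer cells of a type and less RNA per cell cannot be told apart.

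Each early biopsy line had 1 end-stage line that it resembled most. Across 18193 genes, line 69 correlated with end-stage line 68 at r = 0.991, the highest of the 78 pairs among the 13 lines, and line 66 with end-stage line 65 at r = 0.977, the next highest. The 55 pairs of end-stage lines ranged from 0.932 to 0.975, and lines 66 and 69 correlated with each other at 0.971. These correlations are across genes, which are not independent replicates, so they describe the lines and carry no test. At least a 2-fold difference was seen at 305 genes (1.68%) between lines 69 and 68, at 1166 (6.41%) between lines 66 and 65 and at 1339 (7.36%) between the early biopsy lines. The labels do not say whether any of the lines came from the same animal, so the tests treat all 13 lines as separate. The p-values measure only the spread within the 5 sample groups of the 40 arrays, which include tumors and cortices. Counts are given with and without lines 65 and 68.

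**Figure D1:**
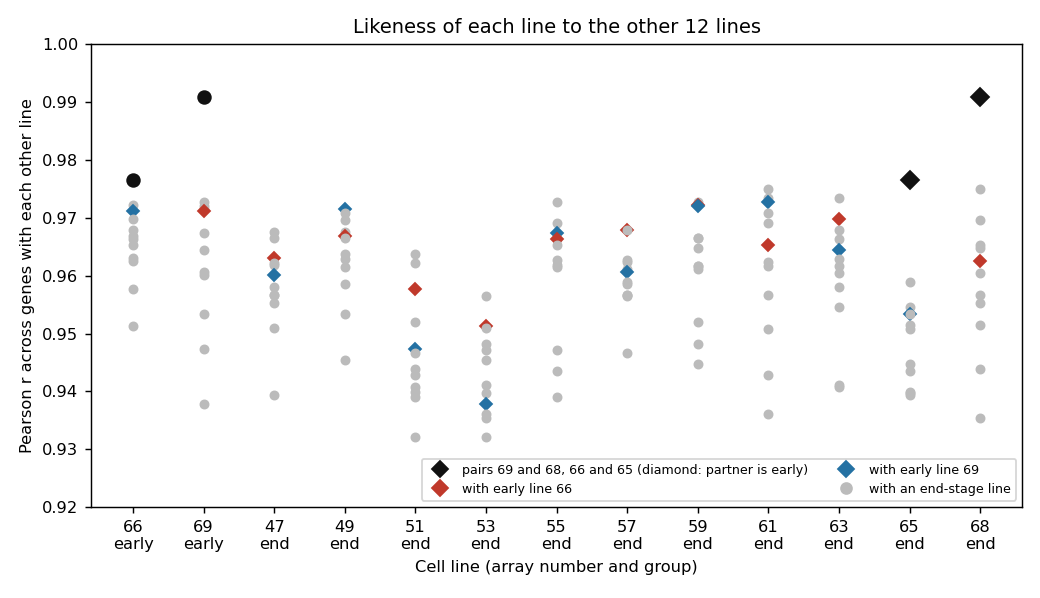
Pearson correlation across 18193 genes (y axis) of each line (x axis, array number and group) with each of the other 12 lines. The highest points belong to lines 69 and 68, at 0.991, and to lines 66 and 65, at 0.977.

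The same pairing appeared in genes that differed most between the early biopsy lines. These genes come from the same values as the correlations, so they describe the pairing and are no separate evidence for it. Of the 20 genes with the largest differences between lines 66 and 69, 10 in each direction, line 66 was closer to 65 than to 68 at 18 and line 69 closer to 68 than to 65 at 19. Xist, the RNA that coats the inactive X chromosome, was at 5.47 in line 66 and 5.59 in line 65 but at 12.82 in line 69 and 12.84 in line 68. Both levels occurred among the end-stage lines, of which 47, 49, 51, 57, 63 and 68 lay at 12.12 or above and 53, 55, 59, 61 and 65 at 5.64 or below. Iapp, which encodes islet amyloid polypeptide, was at 9.92 in line 69 and 8.76 in line 68, while line 51 had 6.22 and every other line at most 3.96. Sox1, a neural progenitor factor, was at 3.24 in line 66 and 3.37 in line 65 and at 8.76 in line 69 and 9.12 in line 68. Mkrn3 and Peg12, imprinted genes, stood at 4.25 and 2.73 in line 66 and at 2.97 and 2.65 in line 65, below all other lines. The exceptions for line 66 were Aldh1a1 and Aldh1a7, retinaldehyde dehydrogenases, and Aldh1a1 was at 3.73 in line 66 and 10.77 in line 65. The Y-linked gene Eif2s3y was at 6.36 in line 66 and 3.20 in line 65, so these lines also differed there.

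Chromosome-wide levels, taken from the same values, followed the same pairs. Only genes with a mean over the 13 lines above the median of all gene means were used. For each chromosome, the median over these genes of the difference from the mean of the 13 lines was taken. Over 20 chromosomes, these medians correlated at r = 0.911 between lines 69 and 68 and at r = 0.809 between lines 66 and 65, and at no more than 0.492 in any other pair of lines. Chromosome 18 genes lay at -0.39 in line 69 and -0.45 in line 68, against a median of 0.15 over the end-stage lines. Chromosome 11 genes lay at -0.28 and -0.33 in the same lines. Chromosome 19 genes lay at -0.34 in line 66 and -0.51 in line 65 but at 0.18 in line 69 and 0.16 in line 68. The early biopsy lines stood on opposite sides of 0 for chromosome 19, and the difference of their mean from the end-stage mean was -0.09, within the end-stage SD of 0.31 (n = 11). Lines 66 and 65 were less alike for chromosome 13, at 0.17 and 0.62. DNA copy number was not measured by these arrays.

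**Figure D2:**
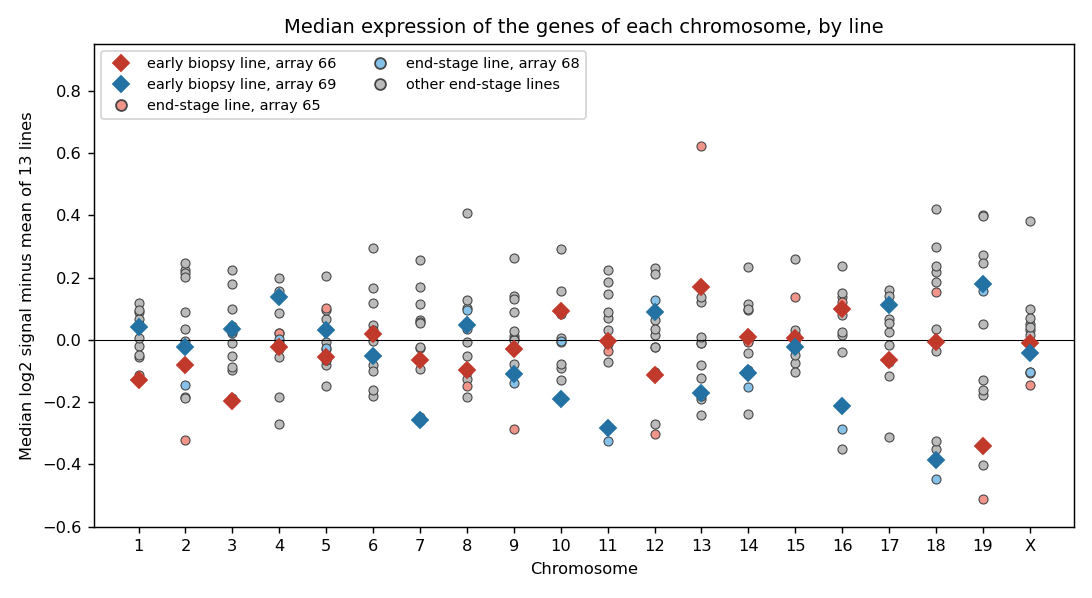
Median over the genes of each chromosome (x axis) of log2 signal minus the mean of the 13 lines (y axis), for every line. Only genes with a mean over the 13 lines above the median of all gene means were used. Lines 69 and 68 lie together at chromosome 18 (-0.39 and -0.45), and lines 66 and 65 lie apart from them at chromosome 19 (-0.34 and -0.51).

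No gene passed the test between the groups. In a limma model of all 5 sample groups, 0 of 18193 genes reached a Benjamini-Hochberg adjusted p under 0.05, and the lowest adjusted p was 0.236. An unadjusted p under 0.05 was found for 515 genes (2.83% of those tested), of which 191 were higher (1.05%) and 324 lower (1.78%) in the early biopsy lines. Both early biopsy lines lay above all 11 end-stage lines at 151 genes (0.830%) and below all of them at 214 (1.18%). At 77.6% of genes both early biopsy lines lay within the range of the end-stage lines. The median 95% confidence interval of a difference extended 0.62 to each side, and for 61.9% of genes the interval lay within a 2-fold difference in both directions. With lines 65 and 68 left out, 287 genes were higher (1.58%) and 578 lower (3.18%) at an unadjusted p under 0.05, and again 0 passed after adjustment. All p-values given below for single genes are unadjusted, come from this limma model, and belong to genes with an adjusted p of at least 0.236.

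The lowest p-values belonged to Atp6v1e2, Trim45, Cyp4a12a, Zfp572 and C730034F03Rik. Atp6v1e2, an isoform of a subunit of the proton pump V-ATPase, stood at 5.22 in line 66 and 5.54 in line 69 and between 4.07 and 4.84, with a median of 4.51, in the end-stage lines. Its difference was 0.87 (95% interval 0.52 to 1.22; p = 1.3e-05), with no overlap of the groups. Line 66 and all end-stage lines lay below the array medians for this gene. It was not among the genes kept when dim genes were left out. Trim45, a RING-type ubiquitin ligase, stood at 6.54 and 6.19 against 6.75 to 7.83, again with no overlap. Cyp4a12a, Zfp572 and C730034F03Rik lay below the array medians in all 13 lines, and Zfp572 overlapped.

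Of 18193 genes, 151 (0.830%) lay above and 214 (1.18%) below all end-stage lines in both early biopsy lines. Among these, genes with an unadjusted p under 0.05 and a mean of at least 7 in the higher group were kept. Of the genes kept, 17 were higher and 54 lower in the early biopsy lines. The largest positive difference belonged to Mir9-3hg, the host transcript of a microRNA-9 gene on chromosome 7. MicroRNA-9 is abundant in neural progenitors and the developing brain. The array measured the host transcript and not the microRNA. Its mature sequences, given by RefSeq on build GRCm38.p6, are shown to identify what this transcript carries, with the seed (bases 2 to 8) in capitals. They lie on the plus strand at chr7:79505279-79505301 and chr7:79505318-79505339.
mmu-miR-9-5p: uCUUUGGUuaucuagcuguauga
mmu-miR-9-3p: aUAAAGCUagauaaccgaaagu

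Mir9-3hg stood at 8.91 in line 66 and 8.62 in line 69 and between 6.37 and 8.46, with a median of 6.76, in the end-stage lines. Line 59 came nearest to the early biopsy lines, followed by line 68 at 7.98. The difference was 1.78 (0.57 to 2.99; p = 0.00492), and it ranged from 1.64 to 1.93 with each line left out in turn. The gliomas with the R172H allele had 7.80 on average and the cortices 7.36, between the levels of the early biopsy and the median end-stage line.

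The other 9 of the 10 largest positive differences were smaller. Mvk, mevalonate kinase, stood at 9.35 and 9.78 in the early biopsy lines and between 7.41 and 9.32, with a median of 8.66, in the end-stage lines, a difference of 1.11 (0.46 to 1.76; p = 0.00146). Lifr, the receptor for leukemia inhibitory factor, stood at 9.86 and 9.75 against 7.94 to 9.72, a difference of 0.85. Chac2, which degrades glutathione, stood at 9.58 and 9.74 against 7.91 to 9.52, a difference of 0.80. The gaps between the groups were small: line 59 reached 9.32 for Mvk and 9.72 for Lifr. Qrsl1, which serves mitochondrial tRNA charging, Cisd2, an iron-sulfur protein of organelle membranes, Sumf1, which activates sulfatases, Mmut, the mitochondrial methylmalonyl-CoA mutase, the mitochondrially encoded complex I subunit ND5 and Dipk1a had differences between 0.58 and 0.70. Without the _x_at and _s_at probe sets Qrsl1 had 0.42 and Sumf1 0.22, and with averaged probe sets Mmut had 0.29. For Qrsl1, line 65 lay at 9.01, just under the 9.02 of line 66.

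The largest negative difference belonged to Pfkp, a phosphofructokinase that commits sugar to glycolysis. Pfkp stood at 7.53 and 7.41 in the early biopsy lines and between 7.92 and 10.28, with a median of 8.95, in the end-stage lines. Its difference was -1.63 (-2.95 to -0.31; p = 0.017), and -0.95 when all its probe sets were averaged. Cited2, a regulator that limits HIF-1 activity, stood at 8.66 and 7.59 against 8.70 to 10.09, a difference of -1.19 (p = 0.043). It rested more on line 69, and the difference was -0.66 without that line and -1.73 without line 66. Bbx, a transcription factor of the HMG-box class, stood at 7.45 and 6.63 against 7.55 to 9.01, a difference of -1.19 (p = 0.000937), which was -0.78 without line 69.

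Foxo3, a forkhead factor that Akt keeps out of the nucleus, stood at 9.07 and 8.57 against 9.15 to 10.30, a difference of -0.90 (p = 0.0218). Bcat1, the cytosolic branched-chain amino acid transaminase, stood at 8.42 and 8.86 against 9.14 to 10.36, a difference of -0.96 (p = 0.00518). Eif3c, a translation initiation factor subunit, stood at 11.06 and 10.98 against 11.08 to 12.89, so line 65 lay only just above the early biopsy lines. The same narrow gap to line 65 was seen for Smyd3, a lysine methyltransferase, at 6.56 and 6.57 against 6.59 to 8.33. Trim45, Zfp438 and Fam117b completed the list with differences of -0.98, -0.98 and -0.95, and Fam117b had -0.31 when its probe sets were averaged.

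**Figure D3:**
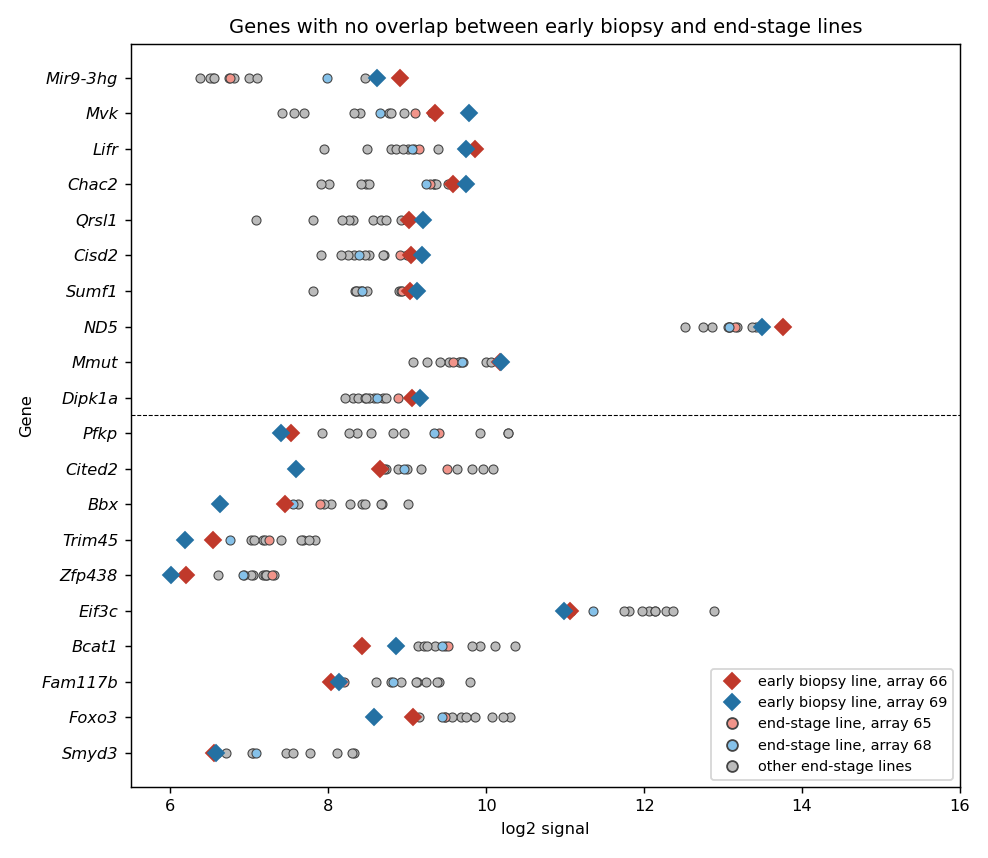
Log2 signal (x axis) of the 20 genes (y axis) with the largest differences, 10 in each direction, among those with no overlap of the groups, an unadjusted p under 0.05 and a mean of at least 7; each symbol is 1 line. Both early biopsy lines lie above all end-stage lines for the genes led by Mir9-3hg (difference 1.78) and below all of them for those led by Pfkp (difference -1.63).

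Genes of cholesterol synthesis and uptake all had positive differences. The 20 measured genes had a median difference of 0.67, while 43.9% of all genes had a positive difference and the median over all genes was -0.04. Both early biopsy lines lay above the end-stage median at 16 of the 20 (80% against 24.0% of all genes). None passed after adjustment, and 5 had an unadjusted p under 0.05 (1.05% of all genes were called higher). Both early biopsy lines lay above all end-stage lines at 2 (0.830% of all genes). With lines 65 and 68 left out, the median was 0.77 and 6 had an unadjusted p under 0.05 (1.58% of all genes were then called higher).

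Tm7sf2, a sterol reductase, stood at 9.69 in line 66 and 9.99 in line 69 and between 7.38 and 9.99, with a median of 8.37, in the end-stage lines, a difference of 1.48 (0.49 to 2.47; p = 0.00442). Msmo1, which removes methyl groups from sterol precursors, stood at 11.81 and 12.49 against 9.88 to 12.08, a difference of 1.09 (0.19 to 1.99; p = 0.019). Sqle, squalene epoxidase, stood at 11.82 and 12.09 against 9.92 to 11.96. These genes overlapped with line 59, which held the highest end-stage value for each. Sc5d, a sterol desaturase, had a difference of 0.89 (p = 0.0147). Srebf2, the controlling factor, stood at 10.47 in both early biopsy lines and at no more than 10.45 in the end-stage lines, a difference of 0.58 (-0.15 to 1.31; p = 0.116). Dhcr7, a late reductase of the pathway, stood at 12.94 and 11.32 and between 8.76 and 13.23, with line 65 highest.

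The level of a list in a line was taken as the median over its members of the difference from the mean of the 13 lines. For cholesterol genes this level was 0.52 in line 66 and 0.65 in line 69, above 10 of the 11 end-stage lines. Line 59 was higher at 0.82, and line 51 was lowest at -1.26. The end-stage lines nearest in expression lay at 0.40 (line 65) and 0.19 (line 68).

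Promoters of Mvk, Tm7sf2 and Msmo1 are shown because these had the largest differences among cholesterol genes with an unadjusted p under 0.05, and the whole list differed in 1 direction. Each run holds the 250 bases before the RefSeq start on GRCm38.p6, read 5′ to 3′ on the gene's strand, at chr5:114444019-114444268 (plus strand), chr19:6067851-6068100 (minus strand) and chr8:64733579-64733828 (minus strand). Capitals mark CCAAT, or ATTGG where it lies on the other strand, the letters of the CCAAT box known from many sterol gene promoters.
Mvk: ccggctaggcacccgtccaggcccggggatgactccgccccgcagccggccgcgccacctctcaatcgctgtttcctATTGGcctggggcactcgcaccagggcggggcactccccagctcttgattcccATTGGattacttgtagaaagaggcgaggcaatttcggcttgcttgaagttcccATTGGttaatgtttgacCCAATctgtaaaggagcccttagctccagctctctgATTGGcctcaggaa
Tm7sf2: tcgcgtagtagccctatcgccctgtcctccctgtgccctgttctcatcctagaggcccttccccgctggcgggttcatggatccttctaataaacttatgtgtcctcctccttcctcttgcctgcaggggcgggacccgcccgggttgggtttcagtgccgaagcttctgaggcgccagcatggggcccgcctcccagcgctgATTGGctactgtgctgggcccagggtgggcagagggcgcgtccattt
Msmo1: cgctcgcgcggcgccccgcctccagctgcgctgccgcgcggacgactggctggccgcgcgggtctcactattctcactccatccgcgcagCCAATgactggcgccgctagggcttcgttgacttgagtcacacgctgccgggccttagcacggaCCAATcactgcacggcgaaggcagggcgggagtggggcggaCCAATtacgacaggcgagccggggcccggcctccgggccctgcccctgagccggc

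The motif occurred 5 times in the Mvk window, 3 times in that of Msmo1 and 1 time in that of Tm7sf2. RefSeq windows were matched for 16 of the 20 cholesterol genes, some with several starts, and 16 of these 19 windows (84.2%) held the motif on either strand. Of all 32851 windows of this length, 33.8% held it. A match describes the letters only.

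Genes of glycolysis and hypoxia had mostly negative differences. Of 27 measured members 25 were lower, with a median of -0.50, while 56.1% of all genes were lower. Both early biopsy lines lay below the end-stage median at 23 (85.2% against 32.9% of all genes). Only Pfkp had an unadjusted p under 0.05 (1.78% of all genes were called lower), and Pfkp and Car9 lay below all end-stage lines (1.18% of all genes). Car9, a carbonic anhydrase induced by hypoxia, stood at 3.91 and 3.92, below the array medians, against 3.99 to 7.28. Ndrg1, a hypoxia-induced gene, stood at 7.93 and 7.41 and between 5.55 and 11.04, with a median of 9.10. Hk2, a hexokinase that starts glycolysis, stood at 8.46 and 9.01 and between 6.83 and 11.67, with a median of 9.97. Ldha, lactate dehydrogenase, had a difference of -0.15 (-1.05 to 0.76) and Pgk1, phosphoglycerate kinase, one of -0.02 (-0.64 to 0.60). The list level was -0.63 in line 66 and -0.35 in line 69, and lines 47 (-0.98) and 51 (-1.34) were lower still.

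Of the 42 lists, p53 targets were the only one whose level lay outside the range of the end-stage lines on the same side in both early biopsy lines. This was 1 of many lists looked at, and no test was made. Of single genes, 0.830% lay above and 1.18% below all end-stage lines. The level was -0.23 in line 66 and -0.29 in line 69 and ran from -0.16 to 0.27 in the end-stage lines. With all probe sets of a gene averaged the groups overlapped, at -0.12 and -0.20 against -0.14 to 0.20. Of 29 measured targets 19 had a negative difference, with a median of -0.20, while 56.1% of all genes had one. Bbc3, Fas, Polk and Eda2r lay below all end-stage lines in both early biopsy lines, while 1.18% of all genes did. Only Bbc3 had an unadjusted p under 0.05, while 1.78% of all genes were called lower. Bbc3, a BCL2-family protein that triggers cell death, stood at 6.04 and 5.80 against 6.35 to 7.52, a difference of -0.86 (-1.49 to -0.22; p = 0.00951). Polk, a DNA polymerase that bypasses lesions, stood at 7.09 and 7.02 against 7.18 to 8.29, a difference of -0.50, or -0.16 with averaged probe sets. Fas, a death receptor, and Eda2r, a receptor of the TNF receptor family, lay below the array medians in both early biopsy lines.

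Cdkn1a, which encodes the cell cycle inhibitor p21, stood at 7.79 in line 66 and 8.98 in line 69 and between 8.06 and 10.84, with a median of 10.09, in the end-stage lines. Its difference was -1.17 (-2.51 to 0.16; p = 0.0825), and 8 end-stage lines lay above both early biopsy lines. The inhibitor gene Cdkn2a overlapped, at 12.18 and 12.29 against 11.66 to 12.46. The p53 gene itself is not analysed here. Of 18 FoxO targets 14 had a negative difference, against 56.1% of all genes, with a median of -0.44. Cited2, described above, was the only one with an unadjusted p under 0.05, while 1.78% of all genes were called lower. The median was -0.24 without line 69.

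Proliferation genes overlapped between the groups. Of 38 cell cycle genes 37 had a positive difference, against 43.9% of all genes, with a median of 0.46. The list levels of 0.26 in line 66 and 0.49 in line 69 still lay among the end-stage lines. Lines 51 (-2.24) and 49 (-1.10) were far below the others, and the median was 0.23 without line 51 and 0.10 with both left out. Mki67, a marker of dividing cells, stood at 10.52 and 10.56 and between 7.50 and 11.32, with a median of 10.44. Tyms, thymidylate synthase, was the only member with an unadjusted p under 0.05, at 5.79 and 6.19 against 3.62 to 5.68, while 1.05% of all genes were called higher. Its difference of 1.46 was 0.41 with averaged probe sets, and it was not among the genes kept when dim genes were left out. Respiratory chain genes had a median difference of 0.13 (0.24 without line 66 and 0.08 without line 69), with 24 of 28 members higher, against 43.9% of all genes. The list level of both early biopsy lines lay above that of 7 end-stage lines.

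Some lineage genes differed widely between the early biopsy lines. Both of these lines lay above the end-stage median at 14 of 18 astrocyte genes (77.8% against 24.0% of all genes). Astrocyte genes were higher than the end-stage mean at 17 of 18 members, while 43.9% of all genes were higher. Their median was 0.62, and 0 had an unadjusted p under 0.05, against 2.83% of all genes. The median was 0.25 without line 66. Mlc1, an astrocyte membrane protein, stood at 9.98 and 9.20 and between 3.97 and 10.63. Gfap, the astrocyte filament, stood at 7.70 in line 66 and 5.32 in line 69 and between 4.35 and 9.17, with a median of 5.05, and its difference of 0.74 (-1.54 to 3.02) was -0.45 without line 66. Mbp, a myelin protein, stood at 12.31 in line 66 and 12.56 in line 65 but at 6.83 in line 69 and 5.77 in line 68. Sox10, an oligodendrocyte lineage factor, stood at 10.80, 12.07, 7.13 and 5.99 in the same lines. Pdgfra, the PDGF receptor of oligodendrocyte progenitors, stood at 12.36 and 10.60 and between 9.60 and 13.81, a difference of 0.36 (-1.40 to 2.11; p = 0.683). Oligodendrocyte progenitor genes as a list stood at 0.70 in line 66 and -0.30 in line 69, with end-stage lines from -0.88 to 1.02, and their median difference of 0.20 was -0.28 without line 66. Olig2, a factor of the same lineage, was high in all lines, at 11.43 and 10.67 and between 10.51 and 11.49.

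Mesenchymal glioma genes had a median of -0.48, with 20 of 24 lower, while 56.1% of all genes were lower. Of these 24, 0 had an unadjusted p under 0.05, against 2.83% of all genes. The median was -0.29 with averaged probe sets, and -0.30 both with dim genes left out and without line 69. Timp1, a metalloproteinase inhibitor, stood at 5.37 and 5.92 and between 4.64 and 8.96, with a median of 7.45, a difference of -1.67 (-3.63 to 0.28; p = 0.0916). Fosl2, an AP-1 factor, lay at 6.59 and 6.61, below all end-stage lines, which began at 6.76, while 1.18% of all genes lay below. The list level was -0.28 in line 66 and -0.31 in line 69, and line 59 was lower at -0.34.

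Interferon-induced genes split the early biopsy lines. The list of 23 stood at 1.90 in line 66, above every end-stage line, and at -1.18 in line 69, below every end-stage line. Line 65 had 1.82 and line 68 had -0.87. The median difference of 0.59 between the groups averaged opposite lines: it was 1.96 with line 69 left out and -1.09 with line 66 left out. Irf7, a transcription factor of the interferon response, stood at 10.88 in line 66 and 5.43 in line 69 and between 5.10 and 9.57, with a median of 6.04, in the end-stage lines. Usp18, which restrains interferon signalling, stood at 11.76 and 5.41 and between 4.68 and 11.54. Antigen presentation genes split the same way, with list levels of 1.23 in line 66, 2.33 in line 65, -0.63 in line 69 and -0.75 in line 68. The list of microglia and macrophages stood at -0.13 in line 66 and -0.15 in line 69, with end-stage lines from -0.25 to 0.27, and Ptprc, the leukocyte marker CD45, at 3.48 and 3.21.

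**Figure D4:**
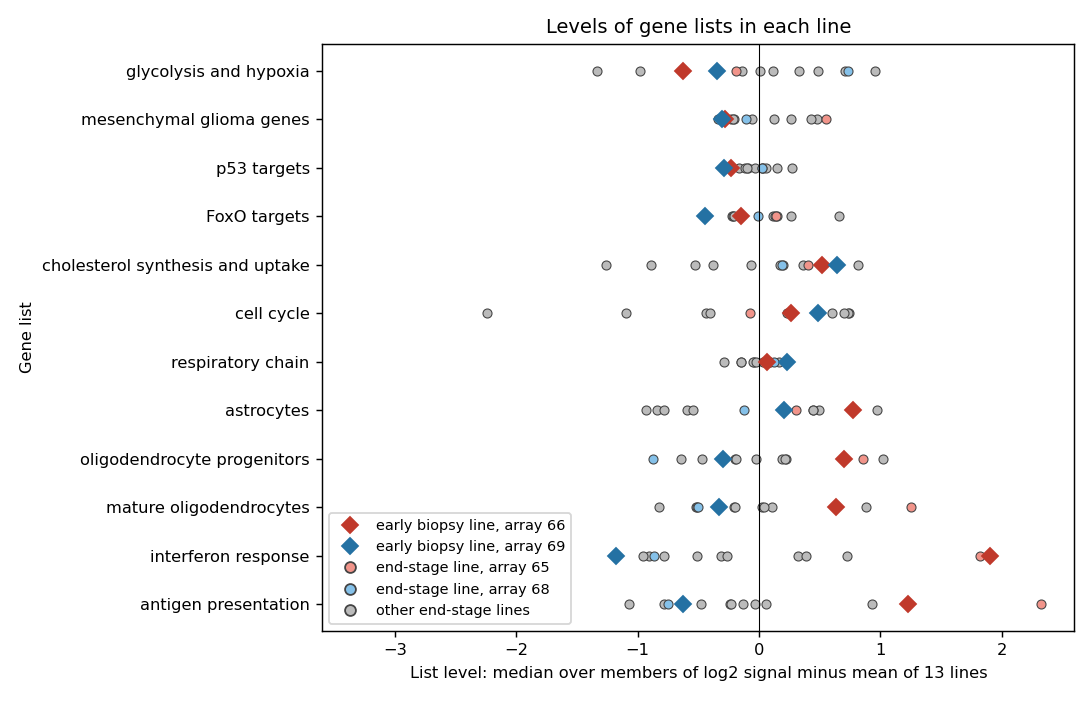
Level of 12 gene lists (y axis) in each line, as the median over members of log2 signal minus the mean of the 13 lines (x axis); diamonds are early biopsy and circles end-stage lines. The cholesterol level of the early biopsy lines (0.52 and 0.65) lay above 10 of 11 end-stage lines, and the interferon level put them at opposite ends (1.90 and -1.18).

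Of all 42 lists, 26 had 0 members with an unadjusted p under 0.05, which 2.83% of all genes had. A median within 0.2 of 0 was found in 25. In 31 lists both early biopsy lines lay within the range of the end-stage lines, as they did at 77.6% of all genes. Genes named by the study's design overlapped as well. Egfr, the EGF receptor, stood at 9.49 and 9.78 and between 3.52 and 11.03, and its difference of 1.04 was 0.53 without line 53 and 0.27 with averaged probe sets. Nf1, a Ras inhibitor, stood at 6.84 and 5.87 and between 5.56 and 6.95. Rictor, a subunit of mTORC2, stood at 8.13 and 7.97 and between 7.89 and 8.79, and the interval of its difference ran from -0.74 to 0.35.

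Each early biopsy line was also set against the end-stage line most like it, 69 against 68 and 66 against 65. These pairs were found from the expression values and are not given by the labels, so the differences are a description of 4 arrays with no test. At least a 2-fold difference in the same direction was seen in both pairs for 60 genes higher (0.330% of all genes) and 36 genes lower (0.198%) in the early biopsy lines. Of all genes, 0.786% and 3.27% were at least 2-fold higher in the first and the other pair, and 0.890% and 3.14% at least 2-fold lower. The genes named next were chosen after their values were seen.

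Grm3, a metabotropic glutamate receptor, was higher by 3.04 in line 69 than in line 68 and by 3.63 in line 66 than in line 65. Pcx, pyruvate carboxylase, which feeds carbon into the citrate cycle, was higher by 1.72 and 3.28, and Nnat, an imprinted gene of the developing brain, by 1.97 and 1.39. Against all end-stage lines these genes overlapped, and Pcx had a difference of 1.50 (0.20 to 2.79; p = 0.0245). On the lower side, the differences were -2.33 and -2.45 for Nupr1, a stress-induced chromatin protein, -2.80 and -1.66 for Ndrg1, -1.71 and -2.56 for Gadd45b, a stress-response gene, and -1.86 and -2.30 for Cdkn1a. Nupr1 lay below all end-stage lines in both early biopsy lines, at 5.85 and 6.53 against 6.59 to 10.85, a difference of -1.78 (-3.62 to 0.05; p = 0.0568).

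The cholesterol and hypoxia lists were less even across the pairs. In the pair 69 and 68 all 20 cholesterol genes were higher, with a median of 0.55, and 25 of 27 glycolysis and hypoxia genes were lower, with a median of -1.08. In the pair 66 and 65 the counts were 11 of 20 and 18 of 27, with medians of 0.05 and -0.22. The shares of all genes were 53.6% higher in line 69 than in line 68 and 50.1% higher in line 66 than in line 65. Mvk was higher by 1.12 in the first pair and by 0.25 in the other, while Tm7sf2 was higher by 1.21 and 1.33.

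**Figure D5:**
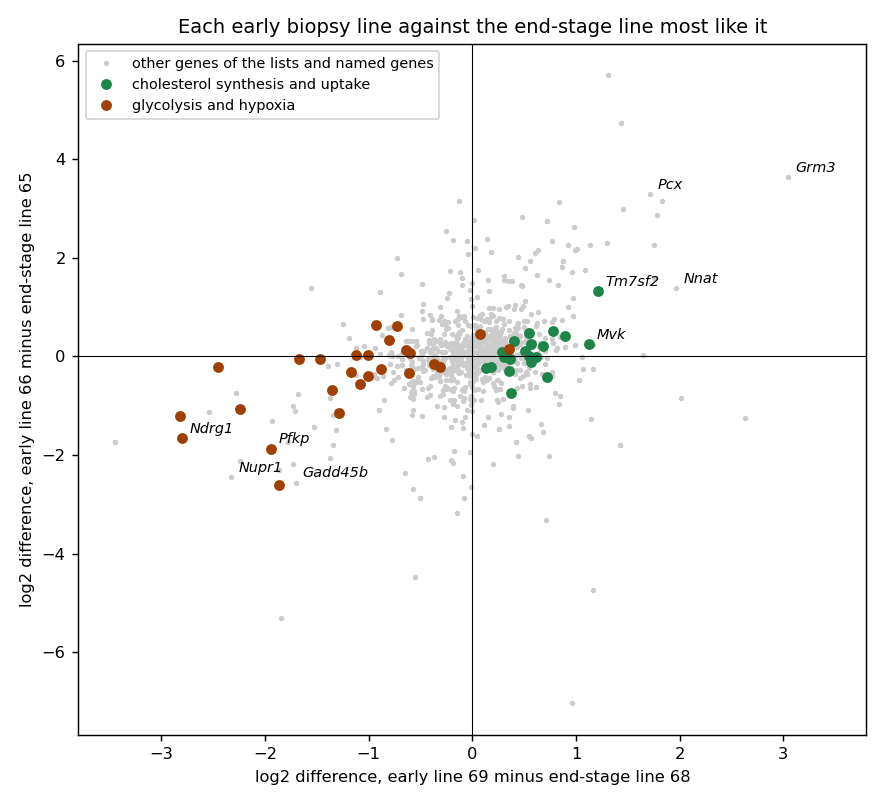
Log2 difference of line 69 from line 68 (x axis) against that of line 66 from line 65 (y axis) for the genes of the lists and the named genes; each point is 1 gene. All 20 cholesterol genes lie above 0 in the pair 69 and 68 but on both sides of 0 in the other pair, and Pfkp lies below 0 in both (-1.94 and -1.88).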

How the data were processed

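Expression had been measured on 40 arrays. The authors deposited log2 signals: RMA had been run on all arrays together, with its background and quantile steps, and the base of the logarithm was taken from the range of the values. Of 45101 probe sets, 64 controls, 932 with several gene symbols and 9160 without a symbol were left out, and 34741 matched RefSeq. Each of 18193 genes was represented by its brightest probe set, by the mean of the 40 columns. Groups followed the sample titles. The members of the comparison and the gene lists were chosen with earlier results of these data known. limma 3.58.1 (R 4.3.3) fitted 5 groups with empirical Bayes moderation and Benjamini-Hochberg adjustment over all genes, at a threshold of 0.05, and was tested on simulated data. Named genes were the 10 largest differences in each direction among genes without overlap, with an unadjusted p under 0.05 and a mean of at least 7, the lowest p-values, members of the lists and genes of the study's design, some of which are not analysed here. Alternatives were averaged probe sets, no _x_at or _s_at probe sets, no dim genes, only the 13 lines in the model, cyclic loess, array quality weights, trended and robust moderation, and each line left out. After seeing the data, lines 65 and 68, and lines 49 and 51, were left out together. The number of arrays limits the precision.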

Additional observations from a re-analysis of the deposited data

How the results depend on the processing

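With 2 early biopsy lines, only differences that were large against the spread between lines could be told. No gene passed in limma under the alternatives except with array quality weights. There 1 gene passed (Atp6v1e2, adjusted p = 0.0483, against 0.236), and 434 genes were higher and 816 lower at an unadjusted p under 0.05. With only the 13 lines in the limma model, Atp6v1e2 had an adjusted p of 0.997. With dim genes left out, 44 were higher and 182 lower, and 50 lay above and 120 below all end-stage lines, of fewer genes tested. With lines 65 and 68 left out, these 4 counts were 287, 578, 324 and 640. With each line left out in turn (leave-one-out) no gene passed, and the counts ran from 151 to 235, 205 to 432, 164 to 1219 and 226 to 1316. The counts without overlap were highest when only line 69 (1219 and 1238) or only line 66 (761 and 1316) remained, and without line 65 the count below was 387. The lone early biopsy line was then assumed to vary like the other groups. Medians over the lines left out ran from -1.09 to 1.96 for interferon genes, 0.23 to 0.55 for cell cycle genes, 0.57 to 0.79 for cholesterol genes and -0.66 to -0.42 for glycolysis and hypoxia genes, and the chromosome 19 difference from -0.35 to 0.17. Signs changed for Rictor with averaged probe sets (0.11), for Gfap (-0.45), Olig2 (-0.33) and Pdgfra (-0.52) without line 66, for Nf1 (0.33) without line 69, and for Olig2 without line 68 (-0.00106) and without lines 65 and 68 (-0.00458). Over the lines left out Gfap ran from -0.45 to 1.93, Olig2 from -0.33 to 0.43, Pdgfra from -0.52 to 1.23 and Nf1 from -0.64 to 0.33. The cause was not tested. With dim genes left out, 7 of 42 list medians moved by more than the spread and 2 lists had no gene left. No paired test was run, because the labels do not say which lines share an animal. The methods describe each R172H tumor as paired with a cell line derived from it, and the model treated these arrays as separate too. A planned test of 1 gene was not run, since that gene is not analysed here.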

Other observations

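Notch pathway genes had a median difference of 0.02 but held members on both sides. Of 20 members, 1 was higher and 2 were lower at an unadjusted p under 0.05 (1.05% and 1.78% of all genes). Both early biopsy lines lay above all end-stage lines at 1 member and below at 1 (0.830% and 1.18% of all genes). Notch3, a receptor, stood at 9.39 and 9.17 against 6.79 to 8.91, above all end-stage lines, a difference of 1.03 (-0.06 to 2.12). Without the _x_at and _s_at probe sets the difference of Notch3 was 0.74. Lfng, a sugar transferase that tunes Notch receptors, stood at 8.43 and 9.67 and between 4.70 and 9.35, a difference of 1.53 (limma, unadjusted p = 0.0423), which was 0.91 without line 69. Rbpj, the DNA-binding partner of Notch, stood at 9.07 and 8.89 against 9.24 to 10.06, below all end-stage lines, a difference of -0.66 (limma, unadjusted p = 0.00982). None of these passed after adjustment.

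Genes of the ATF4 and unfolded protein response had a median of -0.22, which was -0.08 with averaged probe sets and -0.11 without line 49. Of 24 measured members 14 were lower and 10 higher, a share near the 56.1% of all genes that were lower. The members named here are among the lower ones. Trib3, a stress-induced pseudokinase, stood at 6.05 and 6.36 against 6.53 to 10.19, a difference of -1.61 (-3.27 to 0.04). Ddit3, the CHOP transcription factor, stood at 9.12 and 8.68 and between 8.69 and 10.99, and Xbp1, a transcription factor of the same response, at 10.83 and 10.62 and between 10.72 and 12.37, with differences of -0.98 and -0.60. Dusp4, a phosphatase induced by MAPK signalling, stood at 6.18 and 6.35 and between 6.34 and 10.02, with a median of 8.04, and line 65 was the lowest end-stage line.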
